A study of Sus scrofa with 15 samples.

Results

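The cytochrome P450 genes measured here were the 22 genes whose pig symbol starts with CYP and a number, other than CYP1A1, CYP1A2, CYP24A1, CYP27B1 and CYP2R1, among the 3020 genes that could be named on the array. Each gene was represented by its probe with the highest mean signal. The kidneys came from 15 female Yorkshire pigs, 20 weeks old, with 5 pigs in each of 3 groups and 1 array per pig. All pigs had lost the left kidney beforehand, and the right renal vessels were then clamped for 90 minutes of warm ischemia. The labels give this time for the control and rIPCe groups, and the study's methods give it for all 3. The control group had no preconditioning. The rIPCe group had remote ischemic preconditioning (IPC), brief clamping of the right external iliac artery, directly before the renal ischemia. The rIPCl group had the same remote preconditioning with the renal ischemia 24 hours later. Kidney tissue was sampled at 72 hours in every group. No group without ischemia was measured, so each difference is between groups of injured kidneys. The groups compared differ in having preconditioning or in its timing. In whole kidney tissue, fewer cells of a type and less RNA per cell cannot be told apart.

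P450 enzymes are heme proteins that insert an oxygen atom from molecular oxygen into their substrate, with electrons passed on by partner proteins. Microsomal members receive them from the reductase POR and cytochrome b5, and mitochondrial members from ferredoxin, FDX1. Members of the CYP2 and CYP3 families oxidise drugs and other foreign compounds, and CYP4 enzymes oxidise fatty acids. The other families measured here make or break down sterols, bile acids and steroid hormones. In the kidney the CYP2 and CYP4 enzymes are known mainly from the proximal tubule, the segment that takes up filtered and circulating organic compounds.

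Of the 22 genes, 15 were well above background on all 15 arrays, among them every CYP3, CYP4 and CYP2 gene measured except CYP2E1, an ethanol-oxidising enzyme. CYP2E1, CYP7A1 (the first enzyme of the main bile acid pathway), CYP19A2 and CYP19A3 were not well above background on any array, CYP17A1 on 1 array and CYP8B1 on 4. These 6 genes have no usable level here. CYP21A2 was well above background on 2 control arrays and on all 5 arrays of each preconditioned group. The percentage of spots well above background was 62.2% to 69.5% on the control arrays, 67.4% to 73.9% on the rIPCe arrays and 71.8% to 74.2% on the rIPCl arrays, and no spot was saturated. The arrays lay on 4 slides, and slide and group largely coincided: slide 1 held 4 control arrays, slide 2 held 1 control and 3 rIPCe arrays, slide 3 held 2 rIPCe and 1 rIPCl arrays, and slide 4 held 4 rIPCl arrays.

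Both CYP4A genes and 5 of the 7 CYP2 genes had lower values in rIPCl than in control, CYP2C42 and CYP2E1 being the exceptions, with median log2 fold changes of -1.52 over the 7 CYP2 genes and -1.52 over the 2 CYP4A genes. The 2 CYP3A genes had a median of -0.13, the 5 genes of cholesterol and bile acid metabolism 0.40 and the 6 genes of steroid hormone synthesis 0.17, counting genes not above background. Over all 22 genes the median was -0.09, with 8 higher and 14 lower, beside -0.03 over all 43603 probes.

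Calls were made by 2 rules. Under the criteria of the study, a fold change of at least 2 with an unadjusted p under 0.05 (here from limma), 6 of the 22 genes (27.3%) were lower in rIPCl and 0 were higher. Of all probes, 2.16% were lower and 3.67% higher by these criteria. The 6 genes were CYP2A19, CYP2B22, CYP2C49, CYP2D25, and the close copies CYP4A21 and CYP4A24. By an adjusted p under 0.05 in limma, which corrects for all probes, 1 gene passed, CYP21A2, which was higher, beside 2.69% of all probes higher and 3.58% lower. None of the 6 lower genes passed the adjusted threshold in this fit. By the methods' t-test in place of limma, 5 genes met the criteria of the study, all of the 6 but CYP2B22, and the 1 gene past the adjusted threshold was CYP2A19 and not CYP21A2. The count of 6 depended on single arrays: without rIPCl 4 it was 2 (CYP2A19 and CYP2C49). Without control 5 or rIPCl 3 it was 3 (CYP2A19, CYP2C49 and CYP2D25). Without control 2 it was also 3: CYP2A19, CYP2D25 and CYP17A1, which is not among the 6 and has no usable level. No slide held both rIPCl and control arrays. With slide as a block 4 genes met the criteria, of which 2, CYP4A21 and CYP4A24, were among the 6, and 0 passed the adjusted threshold. In that fit the log2 fold changes were -5.06 for CYP2A19, -2.18 for CYP2B22 and -3.85 for CYP2C49. They were -0.92 for CYP2D25, -3.94 for CYP4A21 and -3.99 for CYP4A24, with standard errors of 1.49 to 2.44 over the 6 genes. These values rest on control 5 and rIPCl 1, the only control and rIPCl arrays on slides 2 and 3, so their sign is no separate check. For CYP2A19 they also rest on rIPCe 5, its highest array. In rIPCe versus control 0 of the 22 genes passed the criteria of the study, beside 2.18% of all probes, and 0 passed the adjusted threshold, beside 0.00229%. At an unadjusted p under 0.05, 2 genes, CYP21A2 and CYP39A1, were higher in rIPCe and 0 lower, beside 5.45% and 8.65% of all probes.

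**Figure D1:**
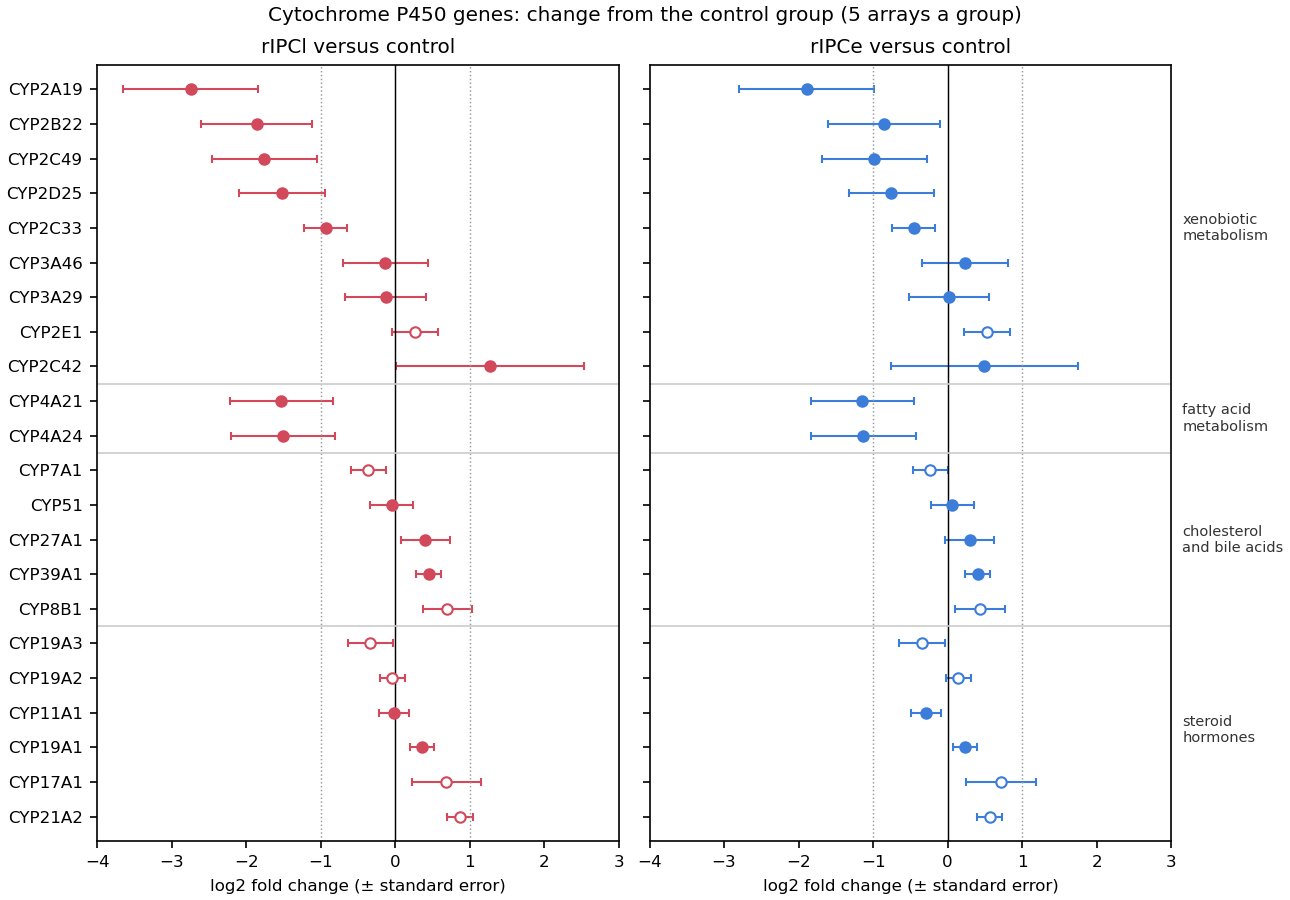
Log2 fold change of each of the 22 P450 genes in rIPCl versus control (left) and rIPCe versus control (right), with the standard error, grouped by role. Filled points are genes well above background on all 15 arrays, open points the other 7, and dotted lines mark a fold change of 2. The CYP2 and CYP4A genes other than CYP2C42 and CYP2E1 lie at the left in both comparisons, from CYP2A19 at -2.74 in rIPCl. The genes of sterol and steroid metabolism lie between -0.37 and 0.87 in rIPCl.

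CYP2A19, a member of the subfamily that oxidises coumarin, nicotine and, in pigs, skatole, had the largest difference of the 22 genes. Its log2 signals were 11.86, 12.52, 12.94, 13.50 and 12.79 on control arrays 1 to 5. They were 10.27, 10.18, 9.35, 9.15 and 15.20 on the rIPCe arrays. They were 9.97, 9.32, 10.85, 9.20 and 10.54 on the rIPCl arrays. All 5 rIPCl arrays and 4 of the 5 rIPCe arrays lay below every control array, whereas rIPCe 5 had the highest signal of all 15. The log2 fold change in rIPCl versus control was -2.74 (SE 0.91, 95% interval -4.69 to -0.80), or 6.70-fold lower, with a limma adjusted p of 0.078. The two-sided exact permutation p was 0.00794, the smallest that 5 arrays against 5 can give.

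The rIPCe mean of CYP2A19 rested on array 5. With it the rIPCe group had a mean of 10.83 ± 2.49 (SD, n = 5) and a log2 fold change of -1.89 against control, with a limma adjusted p of 0.369. Without it the mean was 9.74 ± 0.57 (SD, n = 4), and the fit without this array gave a log2 fold change of -2.99 with a limma adjusted p of 0.0495. In the same fit the adjusted p of rIPCl versus control was 0.016. The signal of rIPCe 5 was the highest of the 15 arrays for every one of the 7 probes of CYP2A19, so the value did not come from 1 spot.

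CYP2B22, of the subfamily induced by phenobarbital, had log2 signals of 9.57, 11.45, 7.55, 7.89 and 9.94 on the control arrays. The rIPCe arrays gave 9.71, 7.34, 8.69, 8.46 and 7.91, and the rIPCl arrays 7.36, 8.68, 6.36, 6.07 and 8.61. Of the rIPCl arrays, 3 lay below all control arrays and the other 2 within their range. The log2 fold change in rIPCl was -1.86 (SE 0.75, limma adjusted p = 0.132), and the exact permutation p was 0.0714. CYP2B22 is a near neighbour of CYP2A19 in the Sscrofa11.1 annotation, with 4 genes between them.

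CYP2C49, a drug-oxidising enzyme of the CYP2C subfamily, gave 11.54, 15.23, 13.01, 13.63 and 13.33 on the control arrays. It gave 12.31, 12.82, 10.42, 12.06 and 14.21 on the rIPCe arrays and 10.78, 12.89, 11.26, 11.67 and 11.33 on the rIPCl arrays. The groups overlapped, with 3 rIPCl arrays below all control arrays. In rIPCl versus control CYP2C49 differed by -1.76 (log2, SE 0.70, limma adjusted p = 0.130), with an exact permutation p of 0.0317.

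CYP2D25, known in the pig as a microsomal vitamin D 25-hydroxylase, gave 15.38, 13.74, 12.92, 13.74 and 14.20 on the control arrays. The rIPCe arrays gave 13.82, 14.35, 11.92, 12.48 and 13.63, and the rIPCl arrays 12.97, 13.01, 11.78, 11.10 and 13.51. All 5 rIPCl arrays were under the control mean of 14.00, and 2 of them under every control array. Between rIPCl and control the log2 fold change was -1.52 (SE 0.57, limma adjusted p = 0.111), with an exact permutation p of 0.0317.

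CYP2C33 did not reach a fold change of 2 on its brightest probe, which spanned 15.96 to 17.29 on the control arrays, 15.76 to 16.74 on the rIPCe arrays and 15.05 to 16.28 on the rIPCl arrays. Its log2 fold change in rIPCl was -0.94 (SE 0.29), with a limma adjusted p of 0.063. The 5 dimmer probes of the same gene, looked at after this value was known, had log2 fold changes of -1.09 to -1.47, and 4 of them had an adjusted p under 0.05. The smallest fold change of CYP2C33 was thus that of its brightest probe.

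The last 3 expressed genes of drug metabolism showed no difference beyond the spread between arrays. CYP3A29 and CYP3A46, adjacent genes of the subfamily with the widest range of drug substrates, both differed by -0.13 (log2) between rIPCl and control, with 95% intervals of -1.29 to 1.02 and -1.36 to 1.09. In rIPCe they differed by 0.02 and 0.23. The 2 other probes of CYP3A29 pointed the opposite way, at 1.00 and 0.62. CYP2C42 differed by 1.27 (log2) in rIPCl and by 0.49 in rIPCe, with a standard error of 1.26. Its arrays fell apart within groups, as seen after the values were known: control 3, control 4 and rIPCe 3 gave 4.84, 5.81 and 4.68, and the other 12 arrays gave 8.39 to 10.83. All 5 rIPCl arrays belonged to the higher set. CYP2C49, with 2 genes between it and CYP2C42 in the annotation, was not low on control 3 and control 4, at 13.01 and 13.63.

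The 2 CYP4A genes were nearly indistinguishable. CYP4A21, which hydroxylates bile acids in pig liver, gave 15.90, 17.57, 15.96, 16.84 and 17.62 on the control arrays. The rIPCe arrays gave 15.04, 15.62, 13.49, 16.44 and 17.57, and the rIPCl arrays 15.97, 15.73, 14.96, 13.55 and 16.03. Again 3 rIPCl arrays lay below all control arrays, and the other 2 lay close above the lowest control array. The log2 fold change in rIPCl was -1.53 (SE 0.69, limma adjusted p = 0.174), with an exact permutation p of 0.0476.

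CYP4A24, a fatty acid hydroxylase, gave 15.80, 17.44, 15.86, 16.79 and 17.53 on the control arrays. The rIPCe arrays gave 14.96, 15.48, 13.35, 16.45 and 17.53, and the rIPCl arrays 15.93, 15.60, 14.95, 13.50 and 15.91. Relative to control the rIPCl group differed by -1.51 (SE 0.70, limma adjusted p = 0.185), with an exact permutation p of 0.0476. On every array the 2 genes kept almost the same distance, with a difference of -0.01 to 0.14 on the log2 scale. They are close copies with 3 genes between them in the annotation, so their probes may share RNA, and the pair cannot be counted as separate evidence.

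**Figure D2:**
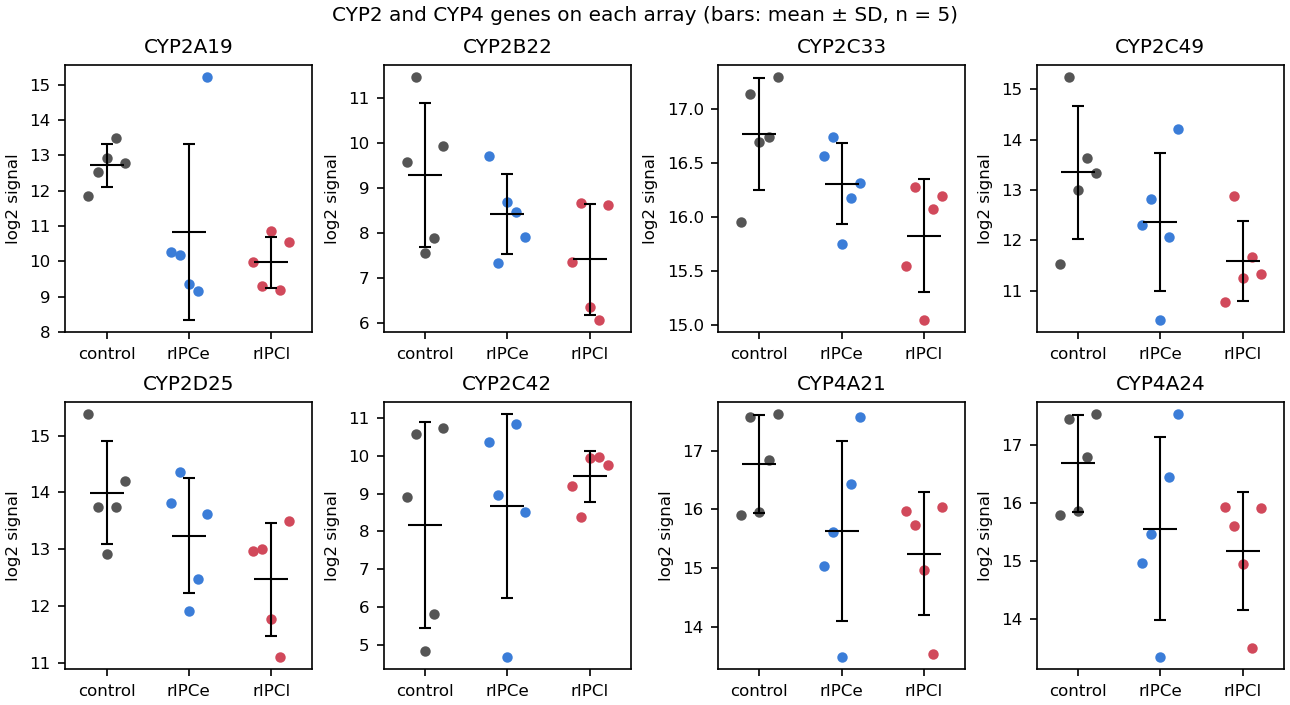
Normalized log2 signal of the 8 CYP2 and CYP4A genes that were well above background on all arrays, with 1 point per array and bars for the mean ± SD (n = 5). The rIPCl arrays of CYP2A19 all lie below the control arrays, rIPCe 5 stands at 15.20, and the points of CYP4A21 and CYP4A24 repeat each other.

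The dimmer probes of the CYP2 and CYP4A genes with lower values all had negative log2 fold changes in rIPCl too. Among the other genes, some or all dimmer probes of CYP11A1, CYP17A1, CYP19A1, CYP2E1, CYP39A1, CYP3A29 and CYP3A46 had the opposite sign to the brightest probe. The 22 genes had 61 probes, and 24 of them (39.3%) were lower in rIPCl by the criteria of the study, with 0 higher, beside the 2.16% of all probes. By adjusted p, 6 probes were lower, 4 of CYP2C33 and 2 of CYP2A19, and 1 was higher. Of the 7 probes of CYP2A19, 6 had log2 fold changes of -2.39 to -3.85 and 1 had -0.17. All 3 probes of CYP2C49, all 3 of CYP2D25, both of CYP2B22, both of CYP4A24 and 3 of the 4 of CYP4A21 met the criteria. Probes of 1 gene are not independent of each other.

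**Figure D3:**
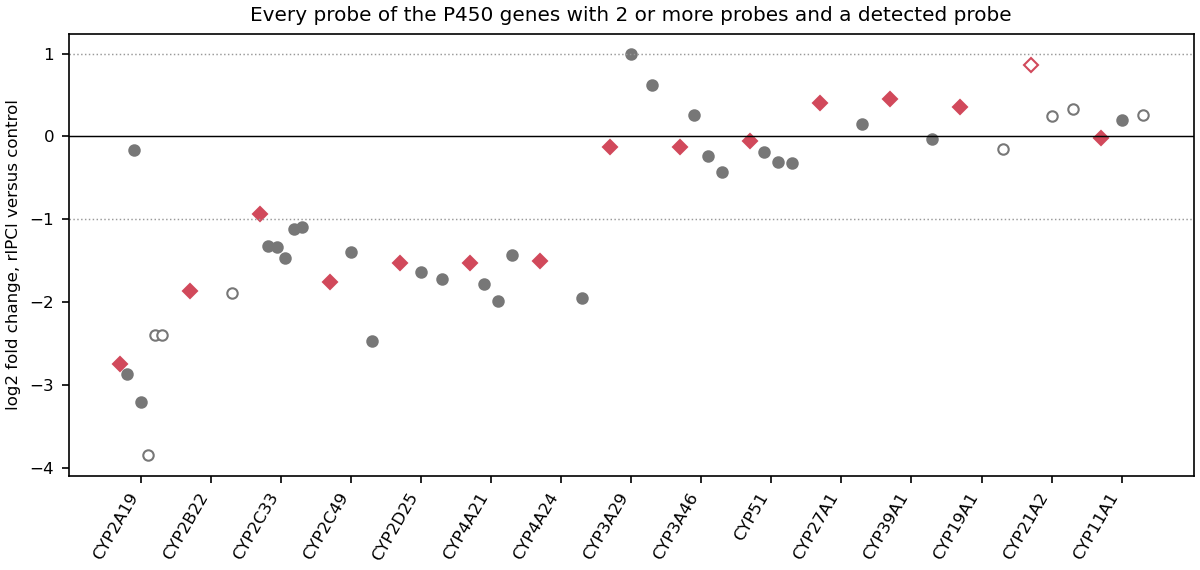
Log2 fold change in rIPCl versus control of every probe of 15 of the P450 genes, each with more than 1 probe. Diamonds mark the brightest probe of a gene, circles its other probes, ordered from bright to dim, and open symbols are probes not well above background on all 15 arrays. The CYP2A19 to CYP4A24 probes lie below -0.9 except the CYP2A19 probe at -0.17, and the probes of the other genes lie between -0.5 and 1.

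Among the P450 genes of cholesterol and bile acid metabolism, none passed the adjusted threshold or the criteria of the study. CYP39A1, an oxysterol 7-alpha-hydroxylase, gave 9.57, 9.57, 9.31, 9.12 and 9.37 on the control arrays. It gave 9.34, 10.19, 9.92, 9.87 and 9.63 on the rIPCe arrays and 10.21, 9.58, 9.63, 9.85 and 9.92 on the rIPCl arrays. Every rIPCl array and 4 rIPCe arrays lay above all control arrays, although the lowest rIPCl array did so by little. The log2 fold changes were 0.45 in rIPCl (SE 0.17, limma adjusted p = 0.108) and 0.40 in rIPCe (SE 0.17, limma adjusted p = 0.302). The exact permutation p in rIPCl was 0.00794. The second probe of CYP39A1, also above background on all arrays, gave -0.03.

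CYP27A1, the mitochondrial sterol 27-hydroxylase, differed from control by 0.40 (log2) in rIPCl (95% interval -0.30 to 1.11) and 0.30 in rIPCe. CYP51, the lanosterol demethylase of cholesterol synthesis, had -0.05 (95% interval -0.67 to 0.57) and 0.06. Among the genes without a usable level, the sterol 12-alpha-hydroxylase CYP8B1 was well above background on 3 rIPCl arrays, 1 rIPCe array and no control array.

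CYP21A2, the steroid 21-hydroxylase of the adrenal cortex, was the 1 gene past the adjusted threshold, with higher values in rIPCl. Its log2 signals were 4.05, 4.80, 4.55, 3.99 and 4.97 on the control arrays. They were 5.01, 5.07, 5.15, 5.01 and 4.91 on the rIPCe arrays and 5.21, 5.37, 5.25, 5.56 and 5.29 on the rIPCl arrays. The 5 rIPCl arrays lay above all control and all rIPCe arrays, and 4 rIPCe arrays lay above all control arrays. The log2 fold change in rIPCl was 0.87 (SE 0.17), with a limma adjusted p of 0.0235 and an exact permutation p of 0.00794. In rIPCe it was 0.56 (SE 0.17), with a limma adjusted p of 0.212.

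The signal of CYP21A2 was low and its call depended on the processing. Only 2 of the 5 control arrays measured it above background, so the size of the difference is uncertain. Its 2 other probes were not above background on any array. With the normexp background correction the difference was 0.20 (log2, limma adjusted p = 0.064), with slide as a block 0.36 (0.777) and with slide as a random block 0.79 (0.222). Without rIPCl 3, 4 or 5 the adjusted p was 0.053, 0.061 or 0.056, and by the methods' t-test CYP21A2 did not pass. Of the adrenal cortex markers measured, HSD3B1 was above background on 15 arrays, NR5A1 on 9 and STAR on 2, with log2 fold changes of 0.06, 0.23 and -0.38 in rIPCl. Their summed signal was 106 to 173 in control, on the rIPCe arrays 112 to 192 and on the rIPCl arrays 127 to 167.

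CYP19A1, the aromatase that makes estrogens, is 1 of 3 adjacent aromatase genes of the pig and was the one with a signal. It gave 11.25, 11.24, 11.16, 11.39 and 11.63 on the control arrays. It gave 11.65, 11.62, 11.84, 11.26 and 11.44 on the rIPCe arrays and 11.16, 12.00, 11.82, 11.65 and 11.82 on the rIPCl arrays. Of the rIPCl arrays, 4 lay above all control arrays and 1 was as low as the lowest. Relative to control, CYP19A1 had a log2 fold change of 0.35 in the rIPCl group (SE 0.16, limma adjusted p = 0.175), with an exact permutation p of 0.0873, and in rIPCe it was 0.23. The second probe of CYP19A1, above background on 10 arrays, gave -0.15. Its mean log2 signal over all arrays was 4.20, against 11.53 for the brightest probe, so the high level of CYP19A1 rests on 1 probe. CYP11A1, the side-chain cleavage enzyme that starts steroid synthesis, had -0.02 in rIPCl (95% interval -0.46 to 0.42) and -0.29 in rIPCe.

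**Figure D4:**
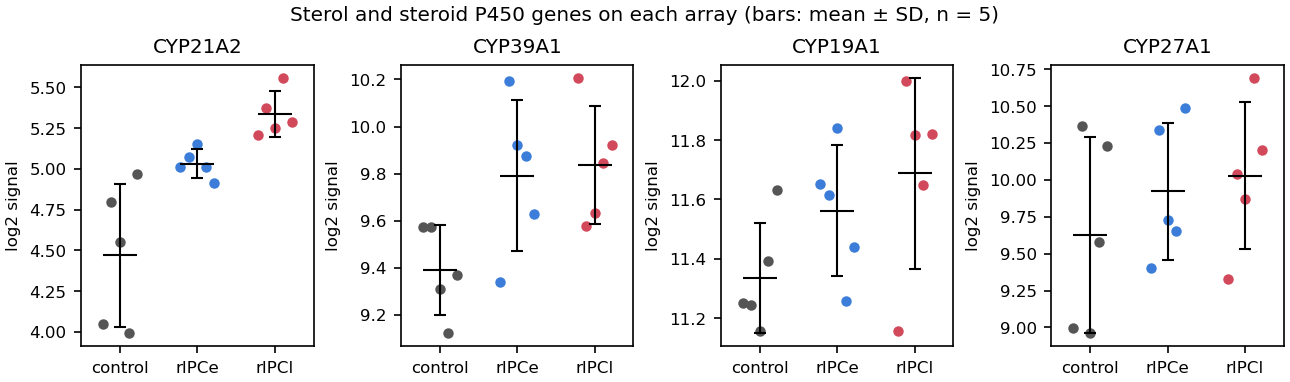
Normalized log2 signal of CYP21A2, CYP39A1, CYP19A1 and CYP27A1, with 1 point per array and bars for the mean ± SD (n = 5). The rIPCl arrays of CYP21A2, at 5.21 to 5.56, lie above every other array, and the spread of CYP27A1 covers all groups.

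The 2 preconditioning windows were compared directly. In rIPCl versus rIPCe 0 of the 22 genes passed the adjusted threshold, beside 0% of all probes, and 0 met the criteria of the study, beside 0.525%. At an unadjusted p under 0.05, 0 genes passed, beside 3.85%. The median difference was -0.77 (log2) over the CYP2 genes and -0.38 over the CYP4A genes. The 95% intervals of the main genes were wide, and ran from -2.80 to 1.09 for CYP2A19, from -2.61 to 0.60 for CYP2B22, from -2.29 to 0.73 for CYP2C49 and from -1.88 to 1.12 for CYP4A24. For CYP39A1 the interval was narrower, -0.31 to 0.40.

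The same genes had lower values in rIPCe than in control without passing either rule. The log2 fold changes in rIPCe were -0.86 for CYP2B22, -0.45 for CYP2C33, -0.98 for CYP2C49, -0.76 for CYP2D25, -1.15 for CYP4A21 and -1.13 for CYP4A24. Both comparisons with control share the 5 control arrays, so these values and those of rIPCl are not independent. Slide 2 held arrays of both groups. There the mean of rIPCe 1 to 3 minus control 5 was -2.85 for CYP2A19, -2.91 for CYP4A21, -1.36 for CYP2B22 and -1.49 for CYP2C49. Of the 22 genes, 17 had the sign of the comparison over all arrays, which includes these arrays, so this agreement was partly built in. Control 5 was the only control array there, and was 0.71 above the control mean over the 8 CYP2 and CYP4A genes above background on all arrays.

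The P450 genes varied more between pigs of 1 group than most genes did. The pooled within-group SD of the log2 signal had a median of 0.97 over the 15 genes above background on all arrays, against 0.30 over all named genes above background on all arrays. It was 2.14 for CYP2C42, 1.54 for CYP2A19, 1.27 for CYP2B22 and 1.18 for CYP4A24. CYP19A1 and CYP39A1 were at the other end with 0.25 and 0.26. The 6 lower CYP2 and CYP4A genes had larger differences than CYP21A2 or CYP39A1, and larger standard errors. Over the 8 CYP2 and CYP4A genes above background on all arrays, the mean difference from the control mean had an SD of 0.83 between the control arrays and was 0.99 on the highest of them. It was -0.59, -0.78, -2.51, -0.71 and 0.39 on the rIPCe arrays, and -1.25, -0.98, -1.57, -2.08 and -0.73 on the rIPCl arrays. Array rIPCe 3 was the lowest array of the 15 in this mean, and rIPCe 5 was above the control mean. Arrays rIPCl 2 and rIPCl 5 lay within the range of the control arrays.

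Markers of the proximal tubule also had lower values in rIPCl. Of 13 markers measured, 10 were lower in rIPCl than in control, with a median log2 fold change of -0.45, and 2 fell by adjusted p, as did 5.03% of all named genes: FBP1, of gluconeogenesis, with -0.91 and SLC7A9, a cystine transporter, with -1.24. HNF4A, a transcription factor of the proximal tubule, had 0.31. The summed signal of the 13 markers was 237405 to 655891 in control, while it was 223392 to 493888 on the rIPCe and 171159 to 447131 on the rIPCl arrays. All 13 were above background on all arrays. Their mean difference from the control mean was -0.58, 0.04, -1.14, -0.56 and -0.22 on rIPCl arrays 1 to 5. Its group mean was -0.49 in rIPCl, against -1.32 for the CYP2 and CYP4A genes, a mean that counts both of the nearly indistinguishable CYP4A genes. All 7 markers of T and NK cells had higher values in rIPCl, with a median of 1.34; 0 of them passed the adjusted threshold and 5 met the criteria of the study, as did 6.89% of all named genes in that direction. Their summed signal was 2023 to 3923 in control, while it was 1739 to 3650 on the rIPCe and 2822 to 8434 on the rIPCl arrays. Of 4 macrophage markers 1 rose, MRC1 (1.01), and of 3 B cell markers 1 rose, CD79A (1.23), beside 4.47% of all named genes. Of 5 distal nephron and 3 endothelial markers 0 passed the adjusted threshold. The part of these markers in the P450 values was not tested.

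**Figure D5:**
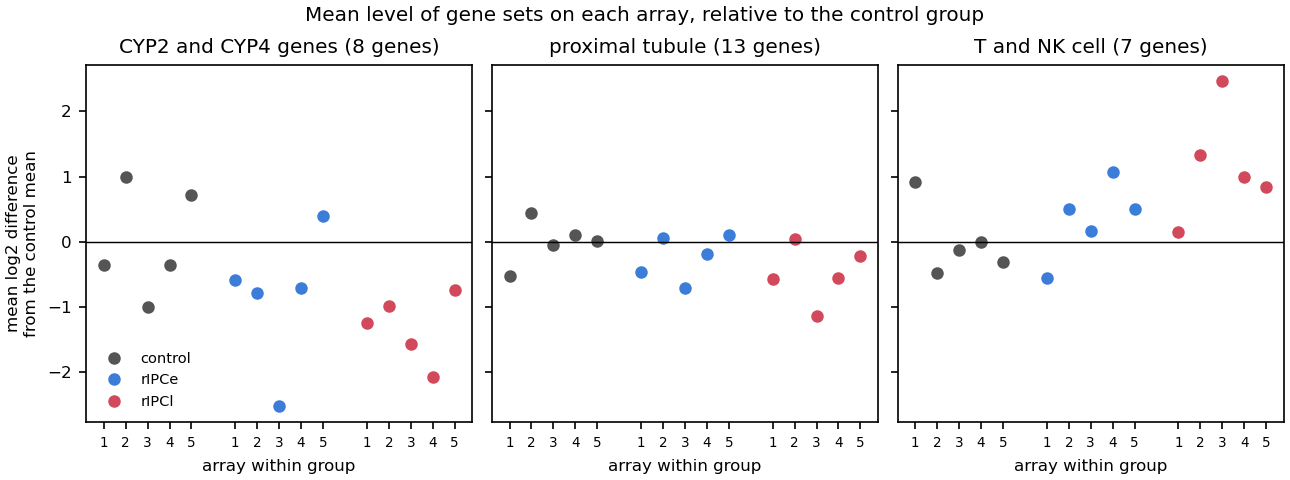
Mean log2 difference of each array from the control mean, over the 8 CYP2 and CYP4A genes above background on all arrays, the 13 proximal tubule markers and the 7 T and NK cell markers. Arrays are in the order of their replicate number, which does not pair pigs across groups. Within a group, arrays of the same slide stand next to each other. All 5 rIPCl arrays lie below 0 for the P450 genes, from -2.08 to -0.73, and above 0 for the T and NK cell markers, from 0.15 to 2.46.

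The partner proteins of the P450 enzymes were all measured at lower mean values in rIPCl. Of 7 electron donors and related proteins, all above background on all arrays, 1 fell by adjusted p, beside 5.03% of all named genes. This was FDX1, the ferredoxin of mitochondrial P450 enzymes, with a log2 fold change of -0.64 (SE 0.13, limma adjusted p = 0.0244). POR, the reductase of all microsomal P450 enzymes, had -0.63 (SE 0.21, limma adjusted p = 0.076). FDXR, which reduces ferredoxin, had -0.01. Among 14 nuclear receptors and other regulators, 1 fell, close to that share, the vitamin D receptor VDR, with -1.09 (limma adjusted p = 0.033). The xenobiotic receptors NR1I2 (PXR) and NR1I3 (CAR), which drive CYP2 and CYP3 genes, had -0.70 (limma adjusted p = 0.090) and -0.07. PPARA, which drives CYP4A genes, had 0.11 (limma adjusted p = 0.808).

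Among other enzymes that handle foreign compounds, 6 fell by adjusted p, beside 5.03% of all named genes. Of 11 other phase I oxidoreductases, all 11 had lower values in rIPCl and 3 fell by adjusted p: FMO1, a flavin monooxygenase, with -1.24, MAOA, a monoamine oxidase, with -1.19, and EPHX1, the microsomal epoxide hydrolase, with -0.75. Of 13 phase II conjugating enzymes 3 fell, GSTO1 with -1.45, SULT1A3 with -0.85 and MGST1 with -0.81, and 0 rose, while 4 had higher and 9 lower values. The medians of these lists were -0.58 and -0.30, beside -0.02 over all named genes. In rIPCe versus control 0 genes of either list passed the adjusted threshold.

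The lists next to the sterol and steroid P450 genes held few calls, near the background of 9.5% of all named genes called in either direction. Of 12 genes of cholesterol synthesis and uptake 1 fell, PMVK, of the mevalonate pathway, with -0.81, and 0 rose. Of 9 steroid enzymes outside the P450 family 0 changed by adjusted p. Of 10 eicosanoid enzymes 1 rose, the thromboxane synthase TBXAS1, with 0.68. In rIPCe versus control 0 genes of these lists passed the adjusted threshold.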

How the data were processed

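RNA from the kidneys of 15 pigs was measured on Agilent pig arrays with 1 colour. The authors deposited scanner files, made with Agilent Feature Extraction 11.0.1.1 by the submitters' processing notes, whose processed signal is an intensity on a linear scale, corrected for background within each array and not normalized between arrays. Of 45220 spots, 1417 control spots were left out and spots marked as outliers were treated as missing. After a log2 transformation the 15 arrays were quantile normalized together, and repeated spots were averaged into 43603 probes. Through RefSeq accessions 6686 probes were given a symbol of 3020 genes.

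Group means of the 3 groups were fitted in limma 3.58.1 (R 4.3.3, with version 1.17.8 of data.table), and p-values were adjusted by Benjamini-Hochberg over all probes. Fold changes are differences of mean log2 signals. Single genes were also given a two-sided exact permutation p. Intervals are 95% intervals of the fit. On simulated data with independent noise for each probe, the fit recovered the median size of known shifts. The simulation had no slides and no outlying arrays, so it did not test the fit under these. The labels number 5 pigs per group; the numbers did not pair pigs across groups, as deviations of same-numbered arrays correlated at -0.27 to 0.07. Replicate arrays correlated at 0.97 to 0.99, and their number limits the precision.

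The members and gene lists were chosen with earlier results of these data known. Every member was named; values on every array were given for genes past either call rule and for the expressed gene of each role with the largest difference in rIPCl versus control. Listed genes were named where their adjusted p was under 0.05, and others after their values were seen; the results of 2 listed genes are not reported here. Alternatives were 75th percentile scaling, normexp on the median spot signal (offset 50; the median in place of the mean was chosen after seeing the data), the deposited value table, a filter on dim probes, slide and replicate blocks, the methods' test, only the arrays compared, the mean of all probes and leaving out each array.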

Additional observations from a re-analysis of the deposited data

Results flagged for a closer look

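In 9 of 66 groups of 5 arrays, 1 array of a P450 gene lay far from the other 4 for the spread of its group, where chance gives about 1 in 20 groups. For CYP2A19, rIPCe 5 had a log2 signal of 15.20 against 9.15 to 10.27 on the other rIPCe arrays. For CYP51, rIPCl 1 had 13.01 against 11.91 to 12.21, and for CYP11A1, control 5 had 6.71 against 6.04 to 6.20. The other 6 concerned genes that were not above background on these arrays: CYP19A2 on rIPCe 2 (2.53), CYP19A3 on control 3 (3.48) and rIPCl 1 (1.95), and CYP7A1 on control 1 (2.94), rIPCe 3 (2.10) and rIPCl 1 (1.63).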

How the results depend on the processing

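In rIPCl versus control the count of P450 genes past the adjusted threshold, 1 over all arrays, was 5 with 75th percentile scaling, which moved the median of all probes by -0.11, and added CYP2A19 and 3 genes not above background. It was 2 with the filter on dim probes, 2 with only the 10 arrays compared, 2 when the probes of a gene were averaged, 2 with the replicate block, and 0 with a fixed or a random slide block. It stayed at 1 with normexp, where the gene was CYP2C33, and with the methods' t-test, where it was CYP2A19, both lower and neither with CYP21A2. Leaving out 1 array gave 0 to 2, with 0 without rIPCl 3, 4 or 5 and 2 without control 1, rIPCe 5 or rIPCl 1. The count of 6 past the criteria of the study became 3 with slide as a random block (CYP2A19 and CYP2C49 of the 6, and CYP2C33). It was 5 with the methods' t-test and 4 with slide as a block, where CYP51 and CYP8B1 were not among the 6. Without 1 array it was 2 to 7, with 2 without rIPCl 4 and 3 without control 5 or rIPCl 3. Without control 2 it was 3, among them CYP17A1, which is not among the 6 and has no usable level. CYP4A21 and CYP4A24 both failed the criteria without control 2, control 4, control 5, rIPCe 1, rIPCe 2, rIPCl 3 or rIPCl 4. CYP4A24 alone of this pair failed without rIPCe 4 or rIPCl 2. Scaling to the 75th percentile added CYP7A1, which has no usable level, to the 6, and averaged probes added CYP2C33. CYP2A19 met the criteria under each of these settings except slide as a block.

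In rIPCe versus control the count past the criteria, 0 over all arrays, was 1 with 75th percentile scaling, the filter on dim probes or averaged probes. With slide as a block it was 4: CYP4A21 and CYP4A24, lower, and CYP17A1 and CYP8B1, higher and without a usable level. Without 1 array it was 0 to 3, with 3 without rIPCe 5 and 1, CYP17A1, without control 2. The adjusted count was 0 to 1, with 1 without rIPCe 5. In rIPCl versus rIPCe slide as a block gave 1. With slide as a block 8 of the 22 genes changed direction in rIPCl, among them CYP2C42 to -3.22, CYP51 to 1.70, CYP27A1 to -1.15 and CYP19A1 to -0.12. CYP19A1 changed direction to -0.024 in rIPCe when the probes of a gene were averaged. The causes were not tested. The replicate numbers did not pair the pigs. The slide block rests on the few arrays of slides 2 and 3, and slide and group cannot be told apart elsewhere.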
